A study of Mus musculus with 13 samples.

Results

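The genes described here encode the receptor chains of the interferons, part of the signaling chain behind them, and the inhibitors that switch it off. They are IFNAR1, IFNAR2, IFNGR1, IFNGR2, JAK1, STAT2, SOCS1, SOCS3 and USP18, chosen by name from the deposited table, which writes mouse symbols in capitals. All 9 were found, out of 24170 genes in the table, and all 9 exceeded the minimum level used below in each of the 8 comparisons made.

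RNA was sequenced from whole 4T1 tumors. 4T1 is a mammary carcinoma line of BALB/c mice, and its cells were implanted into the fat pad of the mammary gland of females of that strain. Metronomic cyclophosphamide (CPA), an alkylating prodrug that is activated in the liver, was injected at 130 mg/kg every 6 days. The vehicle was PBS. The groups were vehicle tumors (3 libraries, mice 10 to 11 weeks old), tumors after 2 CPA cycles (3 libraries, 10 to 11 weeks), after 4 cycles (3 libraries, 12 to 13 weeks), after 7 cycles (2 libraries, 14 to 15 weeks), and tumors in regrowth, 18 days past the end of a course of 4 cycles (2 libraries, 14 to 15 weeks). Each of the 13 libraries was a pool of RNA from 2 to 3 tumors, so a library does not stand for 1 animal. The 2-cycle group is the only CPA group of the same age as vehicle, and in the other comparisons with vehicle CPA and age cannot be told apart. The tissue is a mixture of tumor and host cells: epithelial KRT18 was at 270 to 421 FPKM across the groups, the pan-leukocyte gene PTPRC at 6.81 to 11.5 FPKM and fibroblast COL1A1 at 76.5 to 380 FPKM.

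The table gives 1 value per gene and group, in FPKM (fragments per kilobase of transcript, scaled to the mapped fragments of the library), which is a level per length and so allows genes to be ordered within a group. It is the authors' value for the group. Values of single libraries were not used here, so no value below has an SD or n, no difference was set against the spread between pools, and no p-value is given. For each difference, 0.1 FPKM was added to both groups before the log2 ratio was taken, which shrinks the ratios of genes with low values. A gene is called past the 2-fold limit where this ratio is at least 1 in size and the higher group has at least 1 FPKM. The share of all genes past the same limit is given with the count of members in each comparison, and applies to the gene lists of that comparison too. The summed FPKM of a group lay between 214214 in vehicle and 258724 after 7 cycles, and the 20 genes with the highest values held 10.3% to 12.6% of it.

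Interferons act through paired receptor chains. IFNAR1 and IFNAR2 together bind the type I interferons (alpha and beta), and IFNGR1 and IFNGR2 bind interferon gamma, the type II interferon made mainly by NK and T cells. The Janus kinase JAK1 is attached to IFNAR2 and to IFNGR1 and takes part in both pathways. Type I signaling works through a complex that holds STAT2 and IRF9 and binds interferon-stimulated response elements (ISRE), while type II signaling acts mainly through gamma-activated sites (GAS). STAT2 is thus the member that belongs most closely to the type I arm. The inhibitors differ in their targets. SOCS1 blocks JAK kinase activity and is best known for restraining interferon gamma, SOCS3 acts mainly on receptors of the IL6 and G-CSF kind, and USP18 binds IFNAR2 and displaces JAK1 from it. USP18 is also the protease that removes the ubiquitin-like protein ISG15 from its substrates. SOCS1, SOCS3 and USP18 are themselves cytokine-induced genes.

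The 4 receptor chains, JAK1 and, among the inhibitors, SOCS3 stayed inside 2-fold in all 8 comparisons, and the ratio of the highest to the lowest of the 5 group values was 1.19 for IFNGR2 to 1.41 for SOCS3. The same ratio was 2.73 for STAT2, 3.26 for SOCS1 and 5.99 for USP18. STAT2 and SOCS1 had their highest group value after 2 cycles, USP18 after 7 cycles.

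**Figure D1:**
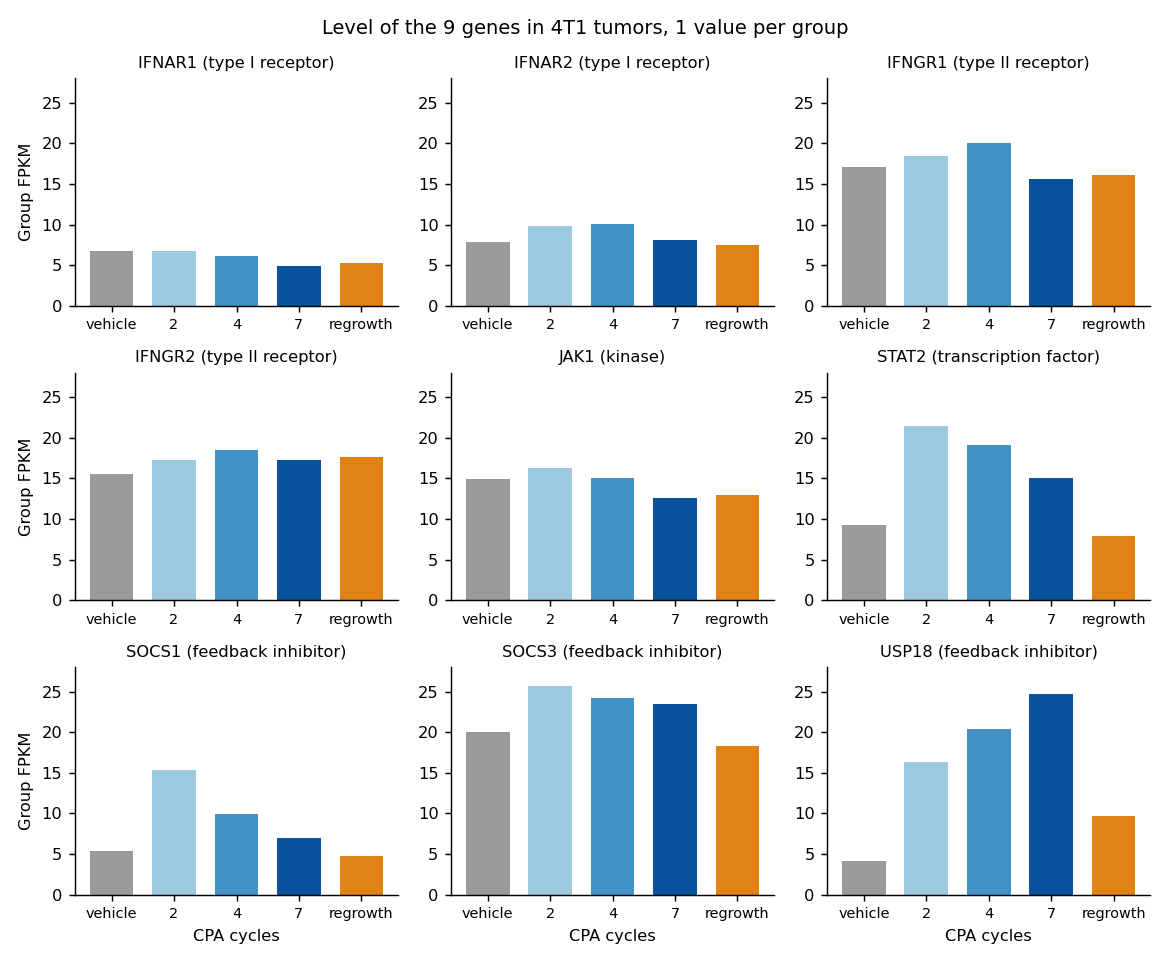
Group FPKM of the 9 genes (bars, 1 authors' value per group, all panels on the same axis) in vehicle tumors, after 2, 4 and 7 CPA cycles and in regrowth. The bars of the receptor chains and JAK1 stay between 4.89 and 20.02 FPKM, while USP18 reaches 24.7 FPKM after 7 cycles against 4.12 FPKM in vehicle.

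To show the sequence ahead of the genes that the results turn on, the 250 bases before the transcription start were read from RefSeq promoters (mouse build GRCm38.p6), where 8 of the 9 genes matched and USP18 did not. The letters TTTC, any 2 bases and TTTC again, the core of an ISRE, and TTCNNNGAA, the core of a GAS, were searched on both strands in these 250 bases. Capitals mark the matches below, and each sequence runs 5′ to 3′ on the strand of its gene and ends at the base before the start.
STAT2 (chr10:128270248-128270497, plus strand): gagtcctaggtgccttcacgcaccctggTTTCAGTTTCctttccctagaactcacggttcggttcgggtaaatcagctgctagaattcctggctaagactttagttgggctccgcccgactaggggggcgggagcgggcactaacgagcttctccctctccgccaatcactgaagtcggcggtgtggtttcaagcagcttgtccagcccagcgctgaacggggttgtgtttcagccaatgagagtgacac
SOCS1 (chr16:10785537-10785786, minus strand): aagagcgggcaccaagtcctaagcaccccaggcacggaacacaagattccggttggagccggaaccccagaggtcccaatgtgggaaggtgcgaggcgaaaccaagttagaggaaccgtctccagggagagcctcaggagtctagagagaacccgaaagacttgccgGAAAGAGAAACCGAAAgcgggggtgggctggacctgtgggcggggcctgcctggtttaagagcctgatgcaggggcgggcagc
SOCS3 (chr11:117969367-117969616, minus strand): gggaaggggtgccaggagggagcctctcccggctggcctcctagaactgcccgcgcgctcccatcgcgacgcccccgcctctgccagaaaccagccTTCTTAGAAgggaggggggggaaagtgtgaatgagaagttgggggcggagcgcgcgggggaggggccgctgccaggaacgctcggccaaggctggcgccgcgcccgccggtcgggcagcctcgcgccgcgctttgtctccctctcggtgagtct
The ISRE letters stood once in the STAT2 sequence, from position -222 to -213 relative to the start. In SOCS1 they stood in a pair of overlapping copies on the opposite strand, from -83 to -74 and from -77 to -68. SOCS3 held no ISRE letters and instead the GAS letters, which read alike on both strands, from -154 to -146. Over all 32851 promoter windows of this length, 2.98% held the ISRE letters and 7.02% the GAS letters. Among the 8 matched genes the ISRE letters were found in SOCS1 and STAT2 and the GAS letters in IFNAR2 and SOCS3. A match of letters is not a binding site, and no binding was measured here.

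Among the receptor chains, IFNAR1 (chr16:91485459-91510767 on build mm9, as are all gene coordinates from here on) had 6.76 FPKM in vehicle tumors, 6.76 after 2 cycles, 6.18 after 4 cycles, 4.89 after 7 cycles and 5.33 in regrowth. Its partner IFNAR2 (chr16:91373027-91405832) had 7.92 FPKM in vehicle, 9.83 after 2 cycles, 10.1 after 4 cycles, 8.16 after 7 cycles and 7.55 in regrowth. At the RNA level, IFNAR2 stood at 1.17 times IFNAR1 in vehicle, 1.45 times after 2 cycles, 1.64 after 4, 1.67 after 7 and 1.42 in regrowth. Both genes stayed inside 2-fold, and the balance of the receptor proteins was not measured.

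The type II receptor was the more abundant at the RNA level in each group. IFNGR1, the ligand-binding chain (chr10:19311763-19330031), had 17.1 FPKM in vehicle, 18.4 after 2 cycles, 20.02 after 4 cycles, 15.6 after 7 cycles and 16.1 in regrowth. IFNGR2, the chain that carries JAK2 (chr16:91547338-91564252), had 15.6 FPKM in vehicle, 17.3 after 2 cycles, 18.5 after 4 cycles, 17.3 after 7 cycles and 17.6 in regrowth. IFNGR1 was at 2.54 to 3.24 times IFNAR1 across the groups and IFNGR2 at 1.76 to 2.33 times IFNAR2. Summed over the 4 chains, the level was 47.4 FPKM in vehicle, 52.3 after 2 cycles, 54.8 after 4 cycles, 45.9 after 7 cycles and 46.6 in regrowth. IFNAR2, IFNAR1 and IFNGR2 lie together within 191 kb of chromosome 16, in a group of receptor genes that also holds IL10RB, a chain of the IL10 receptor.

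JAK1 (chr4:100824578-100937887) had 14.9 FPKM in vehicle, 16.2 after 2 cycles, 15.1 after 4 cycles, 12.6 after 7 cycles and 13.0 in regrowth. Its interval in the table overlaps that of RAVER2, which had no more than 0.0700 FPKM in any group. JAK1 thus stayed within 1.29-fold over the 5 groups.

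STAT2 (chr10:127707631-127729905) had 9.23 FPKM in vehicle, 21.5 after 2 cycles, 19.1 after 4 cycles, 15.0 after 7 cycles and 7.87 in regrowth. The 3 groups under CPA were all above vehicle, in descending order with the number of cycles, and regrowth was the lowest of the 5. STAT2 was the second highest of the 9 genes after 2 cycles and the fifth in vehicle.

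SOCS1 (chr16:10783901-10785629) had 5.36 FPKM in vehicle, 15.4 after 2 cycles, 9.97 after 4 cycles, 6.94 after 7 cycles and 4.73 in regrowth. It was highest after 2 cycles, lower after 4 cycles and lower again after 7 cycles. Regrowth, of the same age as 7 cycles, was the lowest of the 5.

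SOCS3 (chr11:117827400-117830680) had 20.01 FPKM in vehicle, 25.7 after 2 cycles, 24.2 after 4 cycles, 23.5 after 7 cycles and 18.3 in regrowth. It was the most abundant of the 9 genes in every group except after 7 cycles, when USP18 was above it.

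USP18 (chr6:121195923-121220935) had 4.12 FPKM in vehicle, 16.4 after 2 cycles, 20.4 after 4 cycles, 24.7 after 7 cycles and 9.74 in regrowth. It was the lowest of the 9 genes in vehicle tumors and the highest after 7 cycles, and its regrowth value lay between vehicle and the CPA groups. In vehicle tumors 7402 genes of the table had a higher FPKM than USP18, after 7 cycles 1594. Whether any of these neighbours in level differ beyond the spread between pools cannot be read from group values.

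After 2 cycles, STAT2, SOCS1 and USP18 were past the 2-fold limit over vehicle, and no member was below it. USP18 was 3.91-fold higher after 2 cycles than in vehicle (log2 1.97), SOCS1 2.84-fold (log2 1.51) and STAT2 2.31-fold (log2 1.21). The 3 of 9 compare with 3.23% of 11711 genes that were at least 2-fold higher and 0.811% at least 2-fold lower. The median log2 ratio was 0.31 over the members and 0.04 over all genes. The other 6 members had ratios of 0.00 for IFNAR1, 0.10 for IFNGR1, 0.12 for JAK1, 0.15 for IFNGR2, 0.31 for IFNAR2 and 0.36 for SOCS3. In whole tumors, more cells of a type and more RNA per cell cannot be told apart.

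After 4 cycles, USP18 and STAT2 were past the limit over vehicle, 2 of 9 members, against 3.65% of 11718 genes that were higher and 1.6% that were lower. USP18 was 4.85-fold higher (log2 2.28). STAT2 was 2.05-fold higher (log2 1.04), close to the limit, and came to 0.97 with a pseudocount of 1 FPKM, 0.89 after scaling all groups to the same sum and 0.98 after centring on the median of all genes. SOCS1 was 1.84-fold higher (log2 0.88), inside the limit. The median was 0.27 over the members and 0.06 over all genes, and IFNAR2 at 0.35, SOCS3 at 0.27, IFNGR2 at 0.25 and IFNGR1 at 0.22 lay around it, with JAK1 at 0.02 and IFNAR1 at -0.13.

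After 7 cycles, USP18 was the one member past the limit, at 5.88-fold over vehicle (log2 2.55), rank 95 of 11766 genes by this ratio. Past the limit were 4.77% of them on the higher side and 3.09% on the lower side. STAT2 stood 1.62-fold above vehicle (log2 0.70) and SOCS1 1.29-fold (log2 0.37). IFNAR1 had the lowest ratio of the 9, -0.46, followed by JAK1 at -0.24 and IFNGR1 at -0.14. The median over the members was 0.15, and over all genes 0.00. When all groups were scaled to the same summed FPKM, the median of the 14063 genes then over the minimum came to -0.28, and 3 members changed sign: IFNAR2, at 0.04 as deposited, had -0.23, IFNGR2, at 0.15, had -0.12, and SOCS3, at 0.23, had -0.04.

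In regrowth, USP18 was again the one member past the limit over vehicle, at 2.33-fold (log2 1.22). It ranked 121 among 11615 genes, of which 1.72% were past the limit on the higher side and 2.3% on the lower side. With all groups scaled to the same sum its ratio was 1.01. STAT2 had a ratio of -0.23, SOCS1 of -0.18 and SOCS3 of -0.13, so these genes were below vehicle by less than the limit. The median was -0.13 over the members and -0.01 over all genes. IFNGR2, at 0.18, was the one other member above vehicle, and its sign turned under the common sum (-0.05), where the median of all genes was -0.25.

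**Figure D2:**
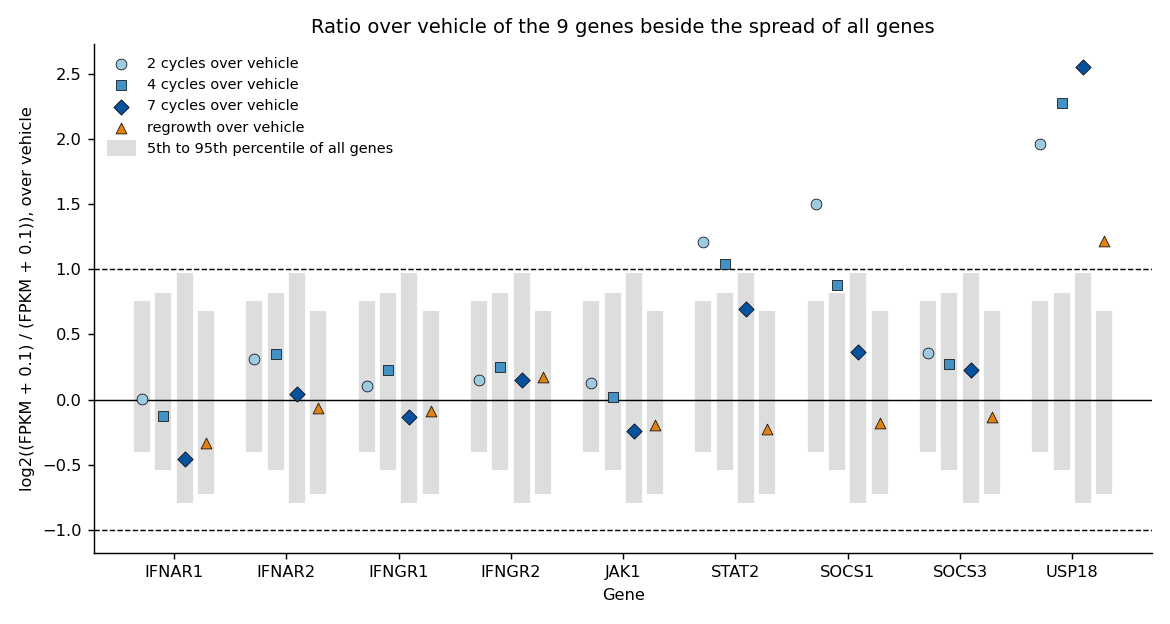
Log2 ratio over vehicle of each gene (points, by CPA group) with the 5th to 95th percentile of all tested genes in the same comparison (gray bars); dashed lines mark the 2-fold limit. USP18 lies above the gray bar in all 4 comparisons, STAT2 and SOCS1 after 2 and 4 cycles only, and the other 6 genes lie inside the bars throughout.

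The CPA groups were also set against each other. The groups after 2, 4 and 7 cycles differ in age too, so number of cycles and age cannot be told apart between them. Between 4 and 2 cycles no member was past the limit, where 0.609% of 11655 genes were higher after 4 than after 2 cycles and 0.592% lower. The largest ratio of 4 over 2 cycles was that of SOCS1, -0.62, and USP18 stood at 0.31. Between 7 and 4 cycles no member was past the limit either, against 1.57% of 11696 genes higher and 1.11% lower after 7 cycles. SOCS1 had a ratio of -0.52 there, IFNGR1 of -0.36, STAT2 of -0.34 and IFNAR1 of -0.33, and USP18, at 0.28, was the one member above 0.

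Tumors in regrowth and tumors after 4 cycles had received the same number of CPA injections and differ in the 18 days without drug and in age. All 9 members were lower in regrowth, and STAT2, SOCS1 and USP18 were past the limit, 3 of 9 against 4.31% of 11678 genes that were lower and 0.985% that were higher. STAT2 was at 7.87 FPKM in regrowth and 19.1 FPKM after 4 cycles, 2.40-fold lower. SOCS1 was at 4.73 FPKM in regrowth and 9.97 FPKM after 4 cycles, 2.08-fold lower. USP18 was at 9.74 FPKM in regrowth and 20.4 FPKM after 4 cycles, also 2.08-fold lower. The SOCS1 and USP18 values stand close to the limit: with a pseudocount of 1 FPKM their log2 ratios were -0.94 and -0.99, which leaves STAT2 alone past it. The median log2 ratio was -0.40 over the members and -0.06 over all genes.

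Regrowth and 7 cycles share an age. USP18 was past the limit here, at 9.74 FPKM in regrowth and 24.7 FPKM after 7 cycles (2.52-fold lower), against 3.2% of 11605 genes lower and 0.888% higher. STAT2 was 1.89-fold lower in regrowth than after 7 cycles, and SOCS1 1.46-fold lower. The receptor chains and JAK1 had log2 ratios between -0.11 for IFNAR2 and 0.12 for IFNAR1 in this comparison. The comparisons with vehicle share the vehicle group, and those among CPA groups share groups with each other, so their ratios are not independent.

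Of 18 interferon and other cytokine genes listed as ligands, 4 reached 1 FPKM in some group, and none of these 4 (IL27, OSM, LIF and CSF3) encodes a ligand of IFNAR or IFNGR. IFNB1, the beta interferon, was at 0.0464 FPKM or less in each group. IFNA1 and IFNA5 were listed at 0 in each group. IFNA4 was at 0.0597 FPKM after 4 cycles and at 0 in the other groups. IFNA2 was at 0.0124 FPKM after 2 cycles, 0.0127 after 4 cycles and 0 elsewhere. The alpha interferon genes are close copies of each other, and the assignment of their reads is uncertain. IFNG, the ligand of IFNGR1 and IFNGR2, had 0.142 FPKM in vehicle, 0.617 after 2 cycles, 0.473 after 4 cycles, 0.171 after 7 cycles and 0.109 in regrowth, so all of its values were under the minimum of 1 FPKM. The 5 groups stood in the same order for IFNG as for SOCS1 and STAT2, highest after 2 cycles and lowest in regrowth. IL27, a cytokine of macrophages and dendritic cells that signals through JAK1, had 0.389 FPKM in vehicle, 1.26 after 2 cycles and 1.01 after 4 cycles and was past the limit in both of these groups. CSF3, which encodes G-CSF and acts on a receptor restrained by SOCS3, had 8.43 FPKM after 7 cycles and 17.8 FPKM in vehicle (log2 -1.07).

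IRF9, which joins STAT2 in the type I complex, had 10.4 FPKM in vehicle, 14.8 after 2 cycles, 14.5 after 4 and after 7 cycles and 10.8 in regrowth, inside the limit. STAT2 was at 0.890 times IRF9 in vehicle, 1.45 times after 2 cycles, 1.32 after 4, 1.04 after 7 and 0.730 in regrowth. TYK2, the kinase attached to IFNAR1, had 3.50 FPKM after 7 cycles and 5.60 FPKM in vehicle, also inside the limit.

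Of the 6 other SOCS family genes none was past the limit over vehicle in any group. CISH, a STAT5-induced SOCS gene, came closest with 9.38 FPKM after 2 cycles and 9.41 after 4 cycles, against 4.84 FPKM in vehicle (log2 0.94 in each). After 7 cycles its ratio was 0.66, and after 4 and 7 cycles it stood above SOCS1, at 0.88 and 0.37. Of 11 other brakes, phosphatases, PIAS proteins and CBL ubiquitin ligases, CBL was past the limit after 7 cycles and in regrowth, on the lower side. It had 0.798 FPKM after 7 cycles and 0.971 FPKM in regrowth, against 2.71 FPKM in vehicle (log2 -1.65 and -1.39). The list medians over vehicle were 0.05, 0.00, -0.18 and -0.08 in group order.

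USP18 can be read beside the ISG15 system on which it acts. ISG15 had 16.5 FPKM in vehicle, 74.5 after 2 cycles, 82.1 after 4 cycles, 84.9 after 7 cycles and 31.0 in regrowth. The ratio of USP18 to ISG15 was 0.2495 in vehicle, 0.220 after 2 cycles, 0.248 after 4, 0.291 after 7 and 0.314 in regrowth. UBE2L6, the enzyme that conjugates ISG15, had 9.91 FPKM in vehicle, 25.9 after 2 cycles, 30.0 after 4, 33.1 after 7 and 16.8 in regrowth. HERC6, the main ISG15 ligase of the mouse, was past the limit after 4 cycles (log2 1.16) and after 7 cycles (log2 1.05). With USP18 itself counted, 3 of 6 genes of this list were past the limit after 2 cycles, 4 after 4 cycles, 4 after 7 cycles and 1, USP18, in regrowth.

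Target genes of the pathway were counted from lists that had been drawn up with earlier results of these data known. Of 10 interferon alpha and beta targets, 9 were past the limit on the higher side after 2, 4 and 7 cycles, all except IRF9, and 0 in regrowth. Their median log2 ratio over vehicle was 2.33 after 2 cycles, 2.55 after 4, 2.34 after 7 and 0.53 in regrowth. OASL1, an oligoadenylate synthetase-like antiviral gene, had 2.72 FPKM in vehicle, 15.7 after 2 cycles, 22.3 after 4, 16.3 after 7 and 3.72 in regrowth. RSAD2 (viperin) had log2 ratios of 2.59, 2.94, 2.71 and 0.65 over vehicle, IFIT3 of 2.40, 2.62, 2.79 and 0.54, and CMPK2 of 2.45, 2.69, 2.36 and 0.83. In regrowth USP18, at 1.22, was above each of these.

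Genes listed as interferon gamma targets had a different course. Past the limit over vehicle were 7 of 10 after 2 cycles, 6 of 10 after 4, 4 of 9 over the minimum after 7 and 0 of 9 in regrowth. Their median was 1.58 after 2 cycles, 1.27 after 4, 0.76 after 7 and -0.10 in regrowth. CXCL9, a chemokine induced mainly by interferon gamma, had 4.34 FPKM in vehicle, 17.1 after 2 cycles, 10.5 after 4, 7.43 after 7 and 3.56 in regrowth. CXCL10 had log2 ratios of 2.24, 1.82, 1.27 and -0.10 over vehicle, CXCL11 of 2.34, 2.11, 2.15 and -0.05, and the tryptophan-degrading enzyme IDO1 of 2.23, 1.98, 0.99 and 0.15. IDO1 was low, at 0.221 FPKM in vehicle, 0.539 after 7 cycles and 0.256 in regrowth. It was the gene under the minimum after 7 cycles and in regrowth, and is not in the counts and medians there. SOCS1 and STAT2 had their ratios in the same descending order of groups as the median of this list, USP18 did not. The list does not mark interferon gamma alone. The study measured IGTP, CXCL10 and CXCL11 as interferon-stimulated genes. In its cultured 4T1 cells, antibody to IFNAR1 fully blocked the rise of IGTP under activated CPA and reduced that of CXCL10. Which interferon lay behind these courses was not tested.

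**Figure D3:**
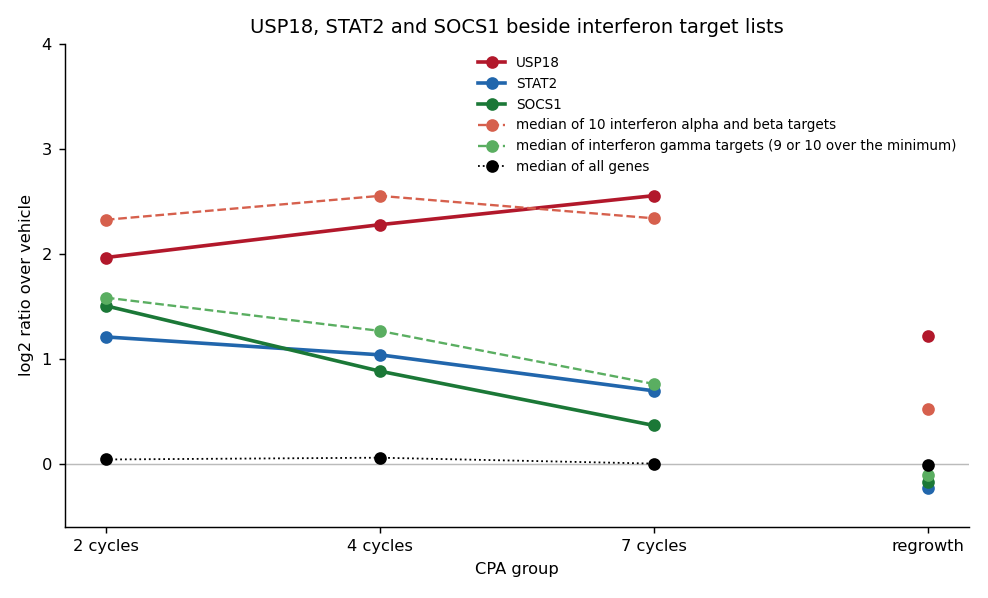
Log2 ratio over vehicle of USP18, STAT2 and SOCS1 (solid lines) and the medians of 2 target lists and of all genes (broken lines), after 2, 4 and 7 CPA cycles; regrowth stands apart as unconnected points. USP18 has its largest ratio after 7 cycles (2.55) and remains at 1.22 in regrowth. STAT2, SOCS1 and the median of the genes listed as interferon gamma targets are largest after 2 cycles and lie below 0 in regrowth.

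The levels of the inhibitors relative to one another and to the receptors differed between the groups. The summed level of SOCS1, SOCS3 and USP18 was 29.5 FPKM in vehicle, 57.5 after 2 cycles, 54.5 after 4 cycles, 55.1 after 7 cycles and 32.7 in regrowth, so the sum was similar in the 3 CPA groups while its makeup was not. SOCS3 was 4.86 times USP18 in vehicle, 1.57 times after 2 cycles, 1.19 after 4, 0.951 after 7 and 1.87 in regrowth. USP18 stood at 0.520 times its partner IFNAR2 in vehicle, 1.67 times after 2 cycles, 2.01 after 4, 3.02 after 7 and 1.29 in regrowth. SOCS1 was at 0.313 times IFNGR1 in vehicle, 0.837 times after 2 cycles, 0.498 after 4, 0.446 after 7 and 0.293 in regrowth. These are ratios of RNA levels in whole tumors and say nothing of the protein or of single cells.

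**Figure D4:**
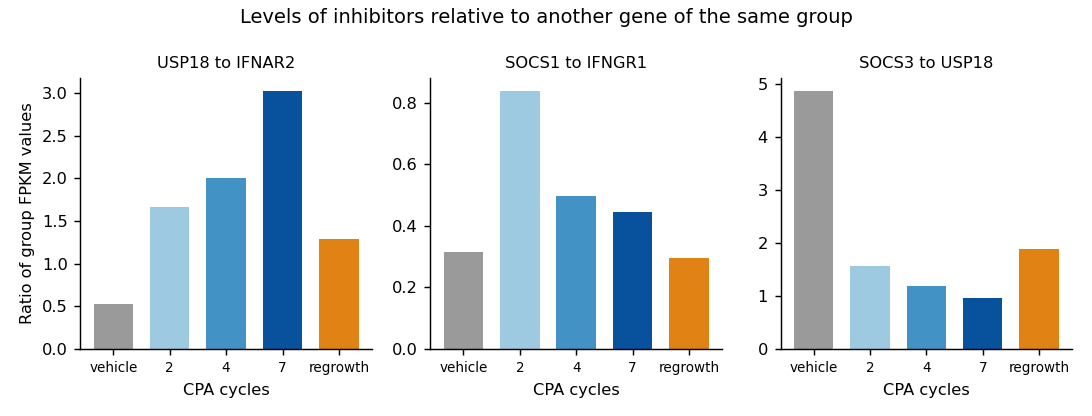
Ratio of the group FPKM values of 3 gene pairs within each group (bars, each panel with its own axis from 0) in vehicle tumors, after 2, 4 and 7 CPA cycles and in regrowth. USP18 to IFNAR2 is highest after 7 cycles (3.02), SOCS1 to IFNGR1 after 2 cycles (0.837) and SOCS3 to USP18 in vehicle (4.86).

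SOCS3 can be read beside the receptors it restrains and the STAT3 targets to which it belongs. Of the receptor genes, CSF3R, the G-CSF receptor of neutrophils, was past the limit after 2 cycles (log2 1.21, 1 of 5 tested) and LIFR after 7 cycles (log2 1.52, 1 of 6). Among 9 STAT3 targets, SOCS3 included, FGG was past it after 4 cycles (log2 2.83), LCN2 after 7 cycles (log2 1.43) and SAA3 on the lower side in regrowth (log2 -1.82). FGG was low throughout, at 1.74 FPKM after 4 cycles and 0.159 FPKM in vehicle, and under 1 FPKM in all groups but the former. The median of the STAT3 targets was 0.27, 0.13, 0.04 and 0.05 over vehicle in group order, and SOCS3 stood at 0.36, 0.27, 0.23 and -0.13.

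The interferon receptor chains belong to the class II cytokine receptors, of which 5 others were over the minimum. IL20RB was past the limit after 4 and 7 cycles (log2 1.66 and 2.16) and F3, the tissue factor, in regrowth (log2 1.24). IL10RB, the neighbour of IFNAR2, stayed between 7.69 and 11.6 FPKM and inside the limit, as IFNAR1, IFNAR2 and IFNGR2 beside it did.

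Summed levels of cell type markers differed between the groups. The summed level of 5 NK and cytotoxic cell genes was 5.93 FPKM in vehicle, 27.9 after 2 cycles, 17.6 after 4, 8.32 after 7 and 5.38 in regrowth, with 5 of 5 genes above vehicle after 2 and after 4 cycles and 2 of 5 after 7 cycles and in regrowth. The 5 groups stood in the same order for this sum as for SOCS1 and STAT2. The T cell genes, 3 of 4 listed being in the table, summed to 2.39 FPKM in vehicle, 5.45 after 2 cycles, 4.09 after 4, 2.91 after 7 and 3.90 in regrowth. Neutrophil genes had the opposite course under CPA, with a sum over 5 genes of 48.9 FPKM in vehicle, 270 after 2 cycles, 290 after 4, 455 after 7 and 51.4 in regrowth, and all 5 were above vehicle after 2, 4 and 7 cycles and 4 of 5 in regrowth. That sum was highest after 7 cycles, as was USP18, but in regrowth it was 1.05 times vehicle where USP18 was 2.33 times. Macrophage genes, 3 of 4 listed being in the table, summed to 1.28, 1.57, 1.09 and 0.958 times vehicle after 2, 4 and 7 cycles and in regrowth, adipocyte genes to 2.28, 1.96, 2.35 and 1.60 times, and B cell genes to 0.307, 0.0606, 0.0445 and 2.49 times. The genes of a list did not all go with its sum. In the same group order, 3, 3, 1 and 1 of 3 macrophage genes were above vehicle. The counts were 3, 3, 3 and 1 of 3 for adipocyte genes and 3, 3, 2 and 3 of 3 for T cell genes. Skeletal muscle genes summed to 198 FPKM after 7 cycles and 36.6 FPKM in vehicle, and the fibroblast sum was 0.267 times vehicle after 7 cycles. Of the 4 fibroblast genes, DCN alone was above vehicle there, at 39.0 against 24.3 FPKM. None of the defining markers of NK, T or neutrophil lists was at 0 in any group, and the part of any cell type in the levels of STAT2, SOCS1 and USP18 was not tested.

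The genes of the table most like STAT2, SOCS1 and USP18 were found by the root mean square difference of the 4 log2 ratios over vehicle, among 12056 genes with at least 1 FPKM in some group. As the 4 ratios share the vehicle value, likeness here is a description over 5 group values. STAT2 was nearest to GBP2B (difference 0.05), GALNT15 (0.06) and ICAM1 (0.08), and 76 genes lay within 0.25 of it. GBP2B, an interferon-induced GTPase, had 23.7 FPKM in vehicle, 53.4 after 2 cycles, 46.4 after 4, 38.8 after 7 and 19.4 in regrowth. SOCS1 was nearest to NR1H3 (0.10), CD36 (0.14) and CD274 (0.14), with 28 genes within 0.25. CD274, which encodes the checkpoint ligand PD-L1, had 3.85 FPKM in vehicle, 10.6 after 2 cycles, 8.27 after 4, 5.64 after 7 and 3.62 in regrowth. USP18 had the fewest genes near it, 4 within 0.25, and its nearest were CLEC3B (0.16), NOV (0.19) and ISG15 (0.21). Few genes have ratios as large as those of USP18, so a fixed distance takes in few there whatever the gene. CLEC3B and NOV had 0.735 and 0.574 FPKM in vehicle, where the added 0.1 FPKM weighs more. The 6 members inside the limit each had between 2646 and 4308 genes within 0.25.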

How the data were processed

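RNA-seq covered 13 pooled libraries in 5 groups, taken from the labels. The submitters' processing notes list mouse build mm9 and, among the tools the authors used, edgeR, featureCounts and TopHat2. Tool versions and annotation: not given in the sources used here. For every gene the authors deposited a single FPKM per group, their value over its pools. The table's 12 columns of the authors' comparisons (ratios, fold changes, p-values) were not used, nor were 3 columns that repeat the vehicle values. Of 24197 lines, 27 with a date for a symbol were left out. Depth per library was not used here, so no counting error is given.

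With group values alone no test could be run. Log2 ratios with a pseudocount of 0.1 FPKM were computed in Python 3.11.15 (pandas 2.3.3, numpy 2.4.6), after checks on simulated data. One gene of the pathway lists is not reported here. Alternatives were other pseudocounts, minimums and fold limits and 2 scalings. The members and lists were chosen with earlier results of these data known. Of each list, at most the 4 genes with the largest ratio past the limit were named, and the 3 genes nearest to each member past it. IFNB1, IFNA1, IFNA2, IFNA4, IFNA5, IFNG, OSM, LIF, IRF9, TYK2, CISH, IGTP, IL10RB, RAVER2 and the marker genes were named in addition for their roles or place, with their values known.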

Additional observations from a re-analysis of the deposited data

How the results depend on the processing

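Of 112 counts of members past the limit under 7 alternatives, 105 stayed within 1.5 times the reported count and 7 did not. For 4 cycles over vehicle, the reported 2 members became 1, USP18, with a pseudocount of 1 FPKM, after scaling to a common sum and after centring on the median of all genes. For regrowth over 4 cycles, the 3 lower members became 1, STAT2, with a pseudocount of 1 FPKM. With a fold limit of 1.5, 7 cycles over vehicle had 2 higher members (STAT2 and USP18), 4 over 2 cycles had 1 lower (SOCS1) and regrowth over 7 cycles had 2 lower (STAT2 and USP18). Of 504 log2 ratios of single members, 494 kept their side of the limit, 6 fell inside it and 4 came past it, all 4 at the lower fold limit. The alternatives that lowered or dropped the FPKM minimum could not move any member count or ratio, since every member exceeded 1 FPKM in each group. Their share of both tallies was thus fixed in advance. USP18, regrowth over 4 cycles, had -0.9997 after centring, just inside the limit.

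Scaling to a common sum raised all values, so the minimum and the pseudocount weighed less and more genes were tested (14063 against 11766 for 7 cycles over vehicle); the parts of these changes were not told apart. It put the median of all genes at -0.03, -0.10, -0.28 and -0.25 over vehicle after 2, 4 and 7 cycles and in regrowth, against 0.04, 0.06, 0.00 and -0.01 as deposited. The share of higher genes among those past the limit was then 67.7%, 52.5%, 36.2% and 24.6%, against 79.9%, 69.5%, 60.6% and 42.8%. Counts over all genes moved by over 1.5 times under several alternatives: for 7 cycles over vehicle, 561 higher genes became 333 with a pseudocount of 1 FPKM, 1008 without a minimum and 1399 at a fold limit of 1.5, and 364 lower genes became 1268 with the common sum and its larger set of genes. Leaving out single libraries was not run, since the columns used hold group values. No paired analysis was possible because no test was run and each column used holds 1 value over the pools of a group. With 1 value per group, no difference here is set against the spread between pools.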

Other observations

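Genes within 100 kb of a member were listed on mm9, and TUBA8, an alpha tubulin gene, was singled out after its values were seen. It lies at chr6:121160787-121176115, 19808 bases before USP18, and had 0.502 FPKM in vehicle, 1.14 after 2 cycles, 1.77 after 4 cycles, 3.09 after 7 cycles and 0.792 in regrowth. Its log2 ratios over vehicle were 1.04, 1.64, 2.41 and 0.57, beside 1.97, 2.28, 2.55 and 1.22 for USP18. PEX26, on the far side of TUBA8, stayed between 1.85 and 2.41 FPKM. Next to STAT2, IL23A (chr10:127733195-127735140), a subunit of the cytokine IL23, was also chosen after its values were seen. It had 8.62 FPKM in vehicle, 5.63 after 2 cycles, 6.00 after 4 cycles, 7.25 after 7 cycles and 14.0 in regrowth, inside the 2-fold limit over vehicle in each group, and was highest in the group where STAT2 was lowest. CNPY2, also near STAT2, was highest in regrowth too, at 58.6 FPKM against 39.0 in vehicle. Other neighbours past the limit were MIR101A near JAK1, higher after 2 and 4 cycles (log2 1.21 and 1.22), and 3 near STAT2. These were lower after 7 cycles: ANKRD52 (-1.10), MIR6914 (-2.06) and MIR6915 (-2.52).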
